A study of Mus musculus with 2 samples.

Results

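Kinesins, cytoplasmic dynein and its partner dynactin are the motors that carry cargo along microtubules, and their messages were described here in long-read RNA sequencing of mouse hippocampus. The members were the protein-coding genes whose symbols mark them as kinesins, kinesin light chains, cytoplasmic dynein subunits or dynactin subunits (names starting Kif followed by a digit or c, Klc, Dync1, Dync2, Dynll, Dynlr, Dynlt or Dctn), chosen by name alone. GENCODE M21 annotates 69 such genes, and 62 of the 18595 genes detected in the series were among them. The rule also takes in Kif1bp, which encodes a protein that binds kinesins and keeps them off the microtubule, and which is not a motor itself. The series holds 2 libraries of 1 group, called replicate 1 and replicate 2, from mouse hippocampus at 6 months of age, of strain B6NCrl (C57BL/6 background). The labels say male in the description, leave the sex field without a value, and give both libraries the same donor identifier but separate biosamples. No second condition exists, so each test compares the 2 libraries and not conditions, and a difference may be technical.

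Most kinesins walk toward the plus ends of microtubules, which in axons point away from the cell body, and cytoplasmic dynein walks toward the minus ends. A kinesin-1 motor pairs 2 heavy chains with 2 light chains, and the light chains help to select cargo. Dynein is built on a very large heavy chain with intermediate, light intermediate and light chains, and needs dynactin to move far. In neurons these motors serve transport in axons and dendrites, and dynein-2 and kinesin-2 also work inside cilia.

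Replicate 1 held 1330153 reads and replicate 2 held 1366252, so that 1 read was worth 0.752 CPM (reads per 1000000 reads of the library) in replicate 1 and 0.732 CPM in replicate 2. Each long read was counted once, and CPM was not divided by transcript length. Many reads covered only part of a transcript, as described below, so CPM counts reads and need not count messages. Of 5 neuronal markers, all were detected, and their levels summed to 5022 CPM (replicate 1) and 6215 CPM (replicate 2), with 4 called higher in replicate 2 by the test between libraries described below. Markers of oligodendrocytes (3 of 5 called higher in replicate 2) summed to 5006 and 6760 CPM, of astrocytes (1 of 5 called each way) to 3317 and 3543 CPM, of microglia (0 of 5 called) to 454 and 585 CPM, and of ependymal and ciliated cells (0 of 5 tested called) to 75.2 and 54.2 CPM. The 7 choroid plexus markers reached 13952 CPM in replicate 1, against 317 CPM in replicate 2, and all 7 were called higher in replicate 1. Their part in any difference between the libraries described below was not tested. In bulk tissue, fewer cells of a type and less RNA per cell cannot be told apart.

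The motor genes together drew 7331 reads in replicate 1 and 8180 reads in replicate 2, or 5511 and 5987 CPM. At least 3 reads in each library were found for 47 of the 69 genes, and 35 genes averaged 10 CPM or more. The 3 kinesin-1 heavy chains held 29.8% of motor reads in replicate 1 and 28.8% in replicate 2. Summed over its members, this family averaged 1682 ± 55.7 CPM, followed by dynactin at 976 ± 41.8 CPM, dynein light chains at 636 ± 27.8 CPM, kinesin light chains at 612 ± 114 CPM, kinesin-3 at 562 ± 42.6 CPM and dynein-1 at 490 ± 73.6 CPM (SD, n = 2 libraries each). In the order of these means, library values overlapped between kinesin light chains and each of dynein light chains, kinesin-3 and dynein-1, and between dynein-1 and kinesin-3. Kinesin-2 averaged 239 ± 18.6 CPM, kinesin-14 157 ± 45.8 CPM, kinesin-4 153 ± 27.5 CPM, dynein-2 67.5 ± 0.229 CPM and kinesin-13 32.7 ± 11.1 CPM. When the incomplete and genomic reads described below were left out, kinesin-1 heavy chains stood at 82.4 CPM. Above them lay dynactin at 715 CPM, dynein light chains at 553 CPM and kinesin light chains at 489 CPM. Dynein-1 at 267 CPM, kinesin-14 at 95.6 CPM and Kif1bp at 93.8 CPM also lay above them.

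**Figure D1:**
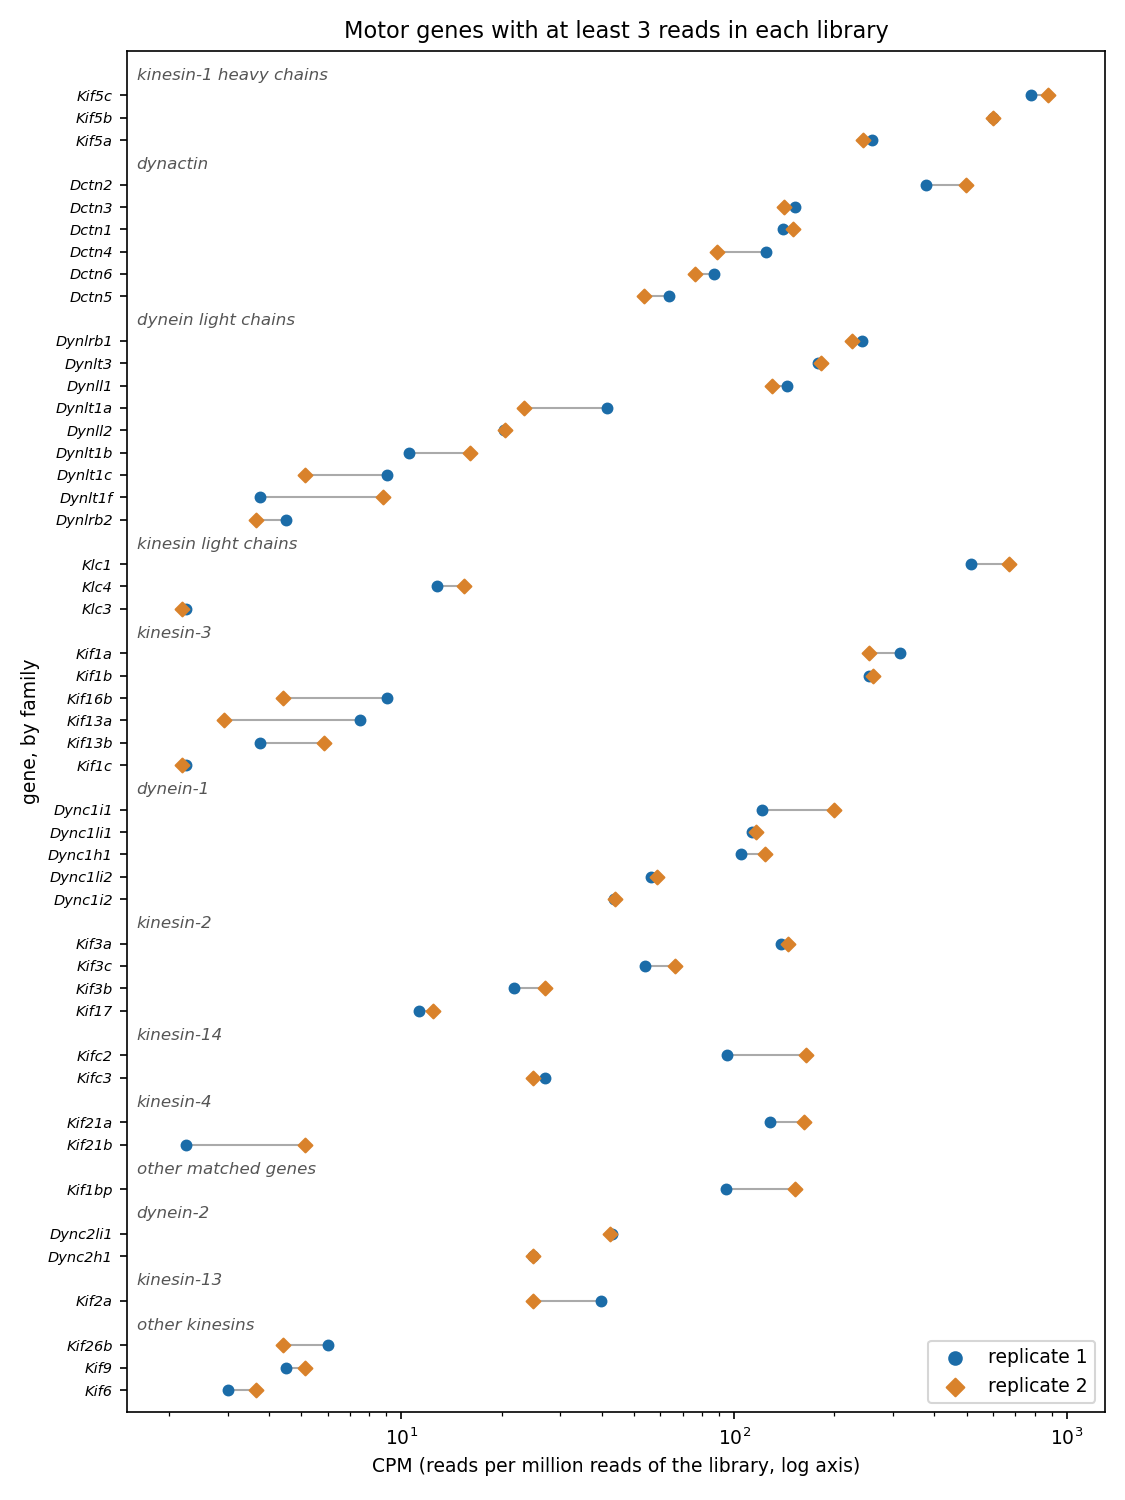
CPM (log axis) of the 47 motor genes that reached 3 reads in both libraries, grouped by family, with a circle for replicate 1 and a diamond for replicate 2 joined by a line. Kif5c is highest in both libraries, and lines are longest among genes with few reads.

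Among the heavy chains of kinesin-1, Kif5c (chr2:49619298-49774778, plus strand), a form enriched in neurons, had 1041 reads in replicate 1 and 1201 in replicate 2 (783 and 879 CPM). Kif5b, the form found in most cell types, had 799 and 818 reads (601 and 599 CPM). Kif5a (chr10:127225696-127263348, minus strand), another neuronal form, had 345 and 333 reads (259 and 244 CPM). The ranges of the 3 genes did not overlap, and Kif5c was the highest motor gene in both libraries. Klc1 (chr12:111758849-111807844, plus strand), a light chain, had 687 and 917 reads (516 and 671 CPM), whereas Klc4 had 17 and 21 reads, Klc3 had 3 in each and Klc2 had 0 and 5.

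Of the kinesin-3 motors, Kif1a (chr1:93015464-93101951, minus strand), which carries precursors of synaptic vesicles, had 419 reads in replicate 1 and 348 in replicate 2 (315 and 255 CPM). Kif1b, whose forms carry mitochondria or synaptic vesicle precursors, had 338 and 357 reads (254 and 261 CPM), and its range overlapped that of Kif1a at the lower end. Kif16b, a motor of early endosomes, had 12 and 6 reads, and Kif13a, Kif13b and Kif1c had between 3 and 10 reads in each library. For kinesin-2, Kif3a had 184 and 199 reads (138 and 146 CPM), Kif3c 72 and 91, Kif3b 29 and 37, and Kif17 15 and 17. Kif17 overlaps Sh2d5 on the same strand, and the labels do not say how reads of overlapping genes were assigned. In kinesin-4, Kif21a, which restrains microtubule growth, had 171 and 221 reads (129 and 162 CPM), Kif21b had 3 and 7, and Kif27 had 1 and 3. Kif2a, a kinesin-13 that shortens microtubules, had 53 and 34 reads. Of the kinesin-14 motors, which walk toward minus ends, Kifc2 had 127 and 225 reads (95.5 and 165 CPM) and Kifc3 had 36 and 34. Among other kinesins, Kif26b had 8 and 6 reads, Kif9 6 and 7, and Kif6 4 and 5.

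The mitotic kinesins were near the detection limit in both libraries. Kif11, Kif15, Kif18a, Kif18b, Kif20a, Kif20b, Kif22 and Kif23, the 8 genes of this group, drew 5 reads in replicate 1 and 7 in replicate 2, and none had 3 reads in each. Kif23 had 2 and 1, and Kif18a and Kif20b had 1 and 2 each. Markers of dividing cells reached 5.26 CPM (replicate 1) and 5.12 CPM (replicate 2) in all, with 5 of 6 detected and Mki67 at 0. In all, 19 members had fewer than 3 reads in each library. Of these, Kif4, Kif18a, Kif19a, Kif20a, Kif20b, Kif22, Kif23, Kif26a, Kif28, Kif2c, Kifc1 and Kifc5b had 1 or 2 reads in at least 1 library. Kifc1 and Kifc5b share 64.1% and 57.2% of the 25-base words of their transcripts with other genes, mostly each other, so their counts are uncertain. Kif7 stood at 0 and 3 reads. Kif11, Kif12, Kif14, Kif15, Kif18b, Kif24 and Kif2b had no read, which allows a level of 2.26 CPM (replicate 1) or 2.20 CPM (replicate 2) at most, 3 reads of the total. This limit covers counting error only.

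All subunits of dynein-1 were detected. Dync1i1 (chr6:5725639-6028039, plus strand), an intermediate chain of neurons, had 161 reads in replicate 1 and 273 in replicate 2 (121 and 200 CPM). Dync1i2, the more widely expressed intermediate chain, had 58 and 60 reads (43.6 and 43.9 CPM). The heavy chain Dync1h1 had 139 and 169 reads (104 and 124 CPM). The light intermediate chain Dync1li1 had 150 and 159 reads (113 and 116 CPM), and Dync1li2 had 75 and 80 (56.4 and 58.6 CPM). The values of Dync1h1 and Dync1li1 overlapped, and those of Dync1li2 and Dync1i2 lay below both. For dynein-2, the motor of transport back along cilia, Dync2li1 had 57 and 58 reads and Dync2h1 had 33 and 34.

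Light chains of dynein were led by Dynlrb1, with 323 reads in replicate 1 and 309 in replicate 2 (243 and 226 CPM). Dynlt3 had 238 and 249 reads (179 and 182 CPM), and Dynll1 had 192 and 178 (144 and 130 CPM). Their paralogs Dynlrb2 and Dynll2 had 6 and 5 reads and 27 and 28 reads. The 4 Dynlt1 genes, Dynlt1a, Dynlt1b, Dynlt1c and Dynlt1f, had between 5 and 55 reads per library, and from 73.5% of the 25-base words in transcripts of Dynlt1a to 89.3% in those of Dynlt1b, with a larger share still in Dynlt1f, occur in other genes. Reads could thus be split among the copies, and values of single Dynlt1 genes are uncertain.

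Of dynactin, Dctn2 (chr10:127266368-127281950, plus strand), the dynamitin subunit, had 503 reads in replicate 1 and 678 in replicate 2 (378 and 496 CPM). Dctn3 had 203 and 193 reads (153 and 141 CPM). Dctn1, the large subunit that binds microtubules and dynein, had 186 and 205 (140 and 150 CPM). Dctn4, Dctn5 and Dctn6, which sit at the pointed end of the complex, had 166 and 121, 85 and 73, and 116 and 104 reads. The values of Dctn1 and Dctn3 overlapped, and both lay below Dctn2.

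To ask how far the libraries differed, reads of each gene were compared with the rest of the library by two-sided Fisher's exact test, and p was adjusted by the method of Benjamini and Hochberg over 11891 genes with at least 10 reads. Of 44 motor genes tested, 5 passed an adjusted p of 0.05, and all 5 were higher in replicate 2. Over all genes tested, 5.95% passed, 2.56% higher in replicate 1 and 3.38% higher in replicate 2. With effective library sizes from TMM, 7 motor genes passed, 2 of them higher in replicate 1. The median log2 ratio, replicate 1 over replicate 2, was -0.03 for motor genes and -0.05 for all genes tested. The test knows counting error only. edgeR's exact test, with a common dispersion estimated from the very difference between these 2 libraries, called 0 of the 44, with 1 at an unadjusted p under 0.05, and 0.412% of all genes.

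The 5 genes were Kifc2, Dync1i1, Kif1bp, Dctn2 and Klc1. Kifc2 showed a log2 ratio of -0.79 (95% interval -1.11 to -0.47, Fisher's exact test adjusted p = 3.96e-05), with 127 reads in replicate 1 and 225 in replicate 2. For Dync1i1 the log2 ratio was -0.72 (-1.01 to -0.44, exact test adjusted p = 2.13e-05). Kif1bp had 126 reads in replicate 1 and 208 in replicate 2, a log2 ratio of -0.68 (-1.02 to -0.36, exact test adjusted p = 0.00101). The log2 ratio was -0.39 for Dctn2 (-0.56 to -0.22, exact test adjusted p = 0.000194) and -0.38 for Klc1 (-0.52 to -0.23, exact test adjusted p = 1.36e-05). Each of the 5 had an adjusted p of 1 in edgeR's exact test, in which Kifc2 had an unadjusted p of 0.0461. On the side of replicate 1, Kif1a had the smallest adjusted p, 0.0558 by Fisher's exact test, with 419 reads in replicate 1 and 348 in replicate 2.

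Of 46 adaptors, regulators and other partners of the motors outside the rule, 45 were detected and 43 could be tested. By Fisher's exact test 5 of the 43 passed, where 5.95% of all genes did, and each of the 5 had an adjusted p of 1 in edgeR's exact test. In replicate 2, 4 were higher, namely Kifap3, the partner of kinesin-2, Capza2, a capping protein of dynactin, Fez1, an adaptor of kinesin-1, and Rhot1, which anchors motors to mitochondria. In replicate 1, Ppfia2, a liprin that binds Kif1a, was higher, with 271 reads in replicate 1 and 169 in replicate 2 (log2 ratio 0.72, Fisher's exact test adjusted p = 1.98e-05). Capza2 had the most reads of these, 897 in replicate 1 and 1225 in replicate 2 (log2 ratio -0.41, exact test adjusted p = 8.36e-09). Summed over the list, the partners stood at 4505 CPM (replicate 1) and 5099 CPM (replicate 2), with a median log2 ratio of -0.09.

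Most motor reads did not lie on a complete annotated transcript. TALON, the program that made the models, sorts reads into annotated transcripts, incomplete matches to one, new combinations of annotated splice sites, models with a new splice site, and genomic reads, whose structure looks unspliced or unprocessed. Annotated transcripts held 25.9% of motor reads in replicate 1 and 28.2% in replicate 2, against 69.5% and 71.8% of the reads of other protein-coding genes. Incomplete models held 50.4% and 43.6% of motor reads, against 15.3% and 14.7%. Incomplete models that start like an annotated transcript and stop short of its end, called prefixes, held 28.2% and 27.1% of motor reads, against 3.87% and 3.75%. The exact 95% intervals of these shares, for incomplete motor reads 49.3% to 51.6% in replicate 1 and 42.6% to 44.7% in replicate 2, did not overlap between motor genes and the rest. No test of this difference over genes was made, since a few motor genes hold most of the reads.

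**Figure D2:**
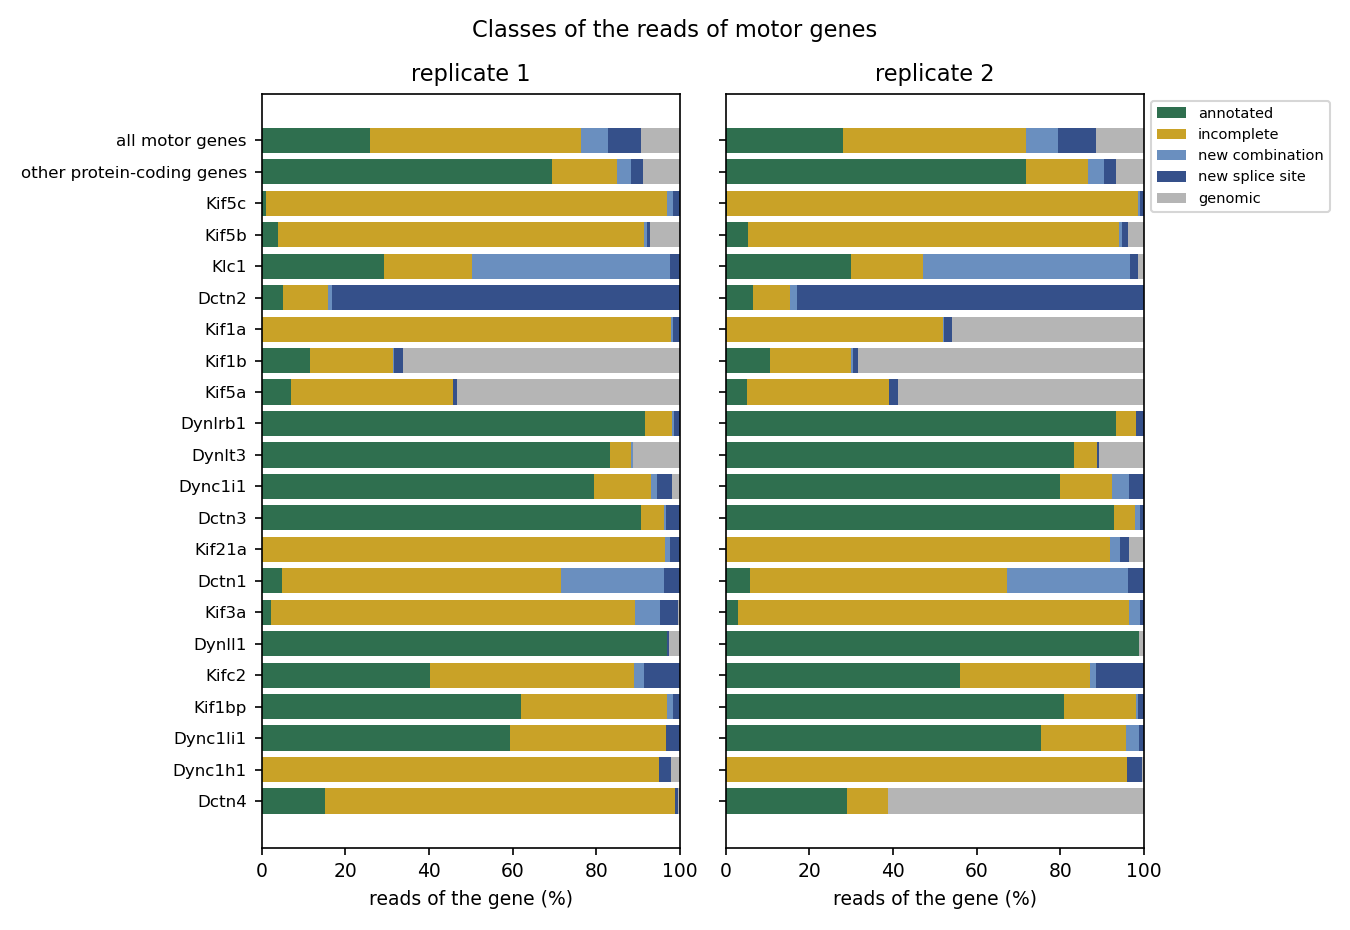
Share of reads (percent) in each class, for all motor genes, other protein-coding genes and the 20 motor genes of highest mean CPM, replicate 1 on the left and replicate 2 on the right. Incomplete reads fill most of Kif5c, Kif5b, Kif21a, Kif3a and Dync1h1 in both libraries, and the unspliced reads of Kif1a and Dctn4 change class between the libraries.

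The share of reads on spliced models that were neither incomplete nor genomic varied with transcript length. It counted annotated transcripts and new models of any length, so short ones counted too, such as Kif1b-209, of 9 exons. Among 32 motor genes with 20 or more reads in both libraries, this share fell with the length of the longest coding transcript (Spearman's rho -0.85, a description across genes that share libraries and are not independent replicates). For 6857 other protein-coding genes rho was -0.68. Motor genes under 2000 bases had a median share of 91.4% (6 genes), and those of 6000 bases or more had a median of 6.43% (9 genes). The corresponding medians of other protein-coding genes were 93.1% and 15.9%. The share was 94.3% in Dynlrb1, whose longest coding transcript has 788 bases. It was 2.09% in Kif1a, with 8206 bases, and 3.25% in Dync1h1, with 14342 bases. Kif3c, of 6791 bases in only 8 exons, stood at 57.1%. The reads counted for Kif1a did not hold the whole chain of its longest transcript, since 0 spliced reads of either library held intron 10. Intron 4 of Dync1h1 was in 1 spliced read in replicate 1 and 0 in replicate 2.

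Dync1h1 and Kif5c reads lacked opposite ends of the transcript. In Dync1h1 the first intron was present in 3 of 132 spliced reads in replicate 1 and 3 of 161 in replicate 2, and the last intron in 87.9% and 90.1%. In Kif5c the first intron was present in 94.3% and 95.2% of spliced reads, and the last in 3.55% and 2.42%. Reads of the kinesin stopped at a few internal exons. Of 929 spliced Kif5c reads in replicate 1 and 1073 in replicate 2, 91.0% and 93.0% had the intron before exon 11 as their last. Exon 11 was also the main stop in Kif5b, with 70.4% and 69.3% of spliced reads, and one of 3 stops in Kif5a, with 30.2% and 21.2%. Further stops were exon 16 of Kif5b (14.3% and 14.4%) and exon 19 of Kif5a (28.3% and 29.2%), and the last exon took 9.99% and 11.2% of Kif5b and 28.9% and 24.8% of Kif5a. Exon 11 has 149 bases in each of the 3 paralogs, and the pairs are identical at between 67.1% and 71.1% of positions. The models carry whole annotated exons, so the base at which a read ended is not given.

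**Figure D3:**
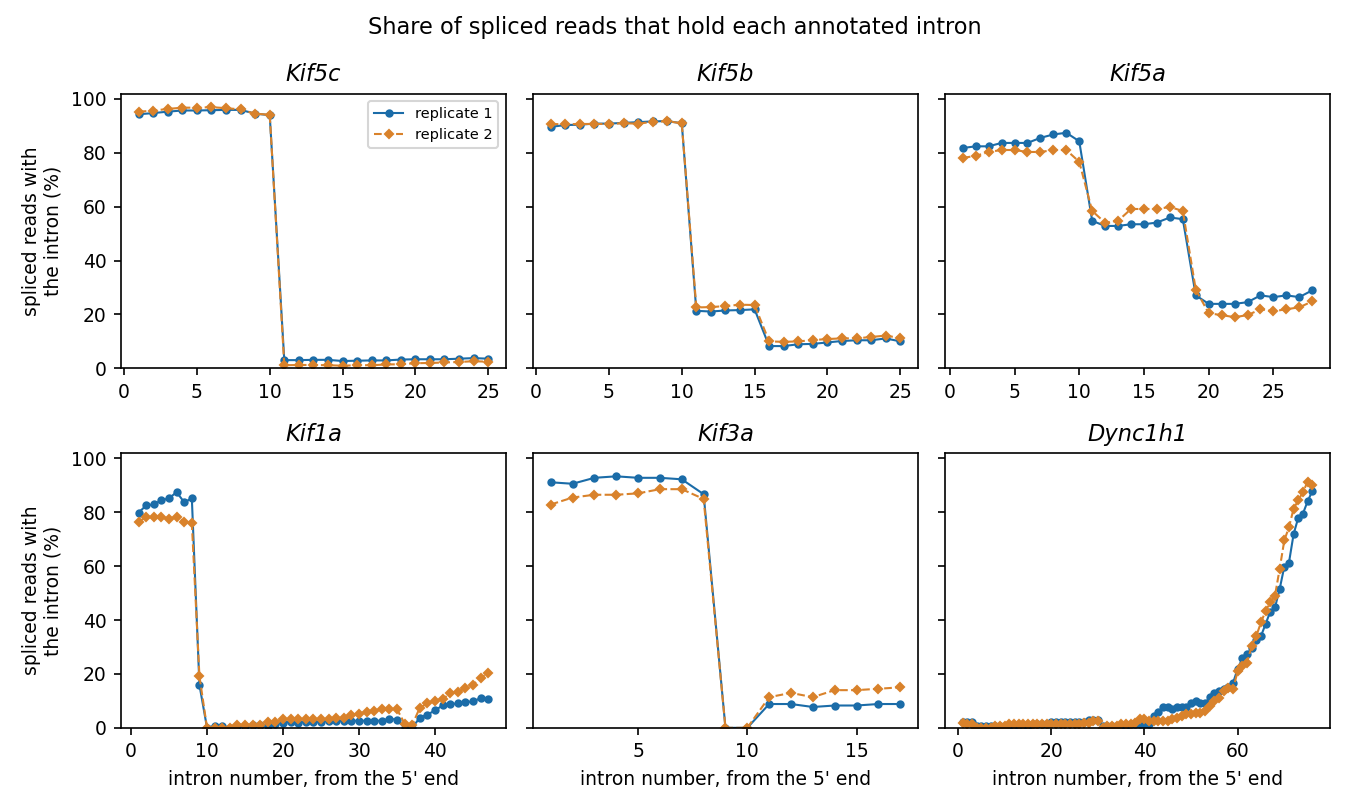
Share of spliced reads (percent) that hold each annotated intron of the longest coding transcript, by intron number from the 5' end, circles for replicate 1 and diamonds for replicate 2. Values drop after intron 10 in Kif5c and Kif5b, in steps in Kif5a, and near introns 8 to 10 in Kif1a and Kif3a, and rise toward the 3' end in Dync1h1, in both libraries.

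Stretches at or just past the exons at which reads stopped are shown for their A content. In the 5 stretches below, written 5' to 3' from the GENCODE M21 transcripts (mm10), capitals mark the 20-base window with most A. These are exon 11 of Kif5c (chr2:49710720-49710868, plus strand) and of Kif5a (chr10:127242658-127242806, minus strand), exon 9 of Kif3a (chr11:53586835-53586930, plus strand), and the first 40 bases of exon 11 of Kif1a (chr1:93068521-93068560, minus strand) and Kif1b (chr4:149263651-149263690, minus strand).
Kif5c exon 11: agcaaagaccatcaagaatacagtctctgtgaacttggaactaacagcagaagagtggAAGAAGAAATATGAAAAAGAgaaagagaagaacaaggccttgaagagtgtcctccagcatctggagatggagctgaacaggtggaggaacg
Kif5a exon 11: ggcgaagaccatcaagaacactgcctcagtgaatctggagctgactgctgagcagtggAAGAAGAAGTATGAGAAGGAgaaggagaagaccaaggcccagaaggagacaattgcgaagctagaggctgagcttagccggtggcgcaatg
Kif3a exon 9: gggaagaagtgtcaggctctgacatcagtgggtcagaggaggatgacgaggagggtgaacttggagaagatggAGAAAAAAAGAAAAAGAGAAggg
Kif1a start of exon 11: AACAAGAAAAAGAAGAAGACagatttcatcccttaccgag
Kif1b start of exon 11: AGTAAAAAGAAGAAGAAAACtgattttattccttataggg
The window holds 14 A in Kif5c, 11 in Kif5a, 16 in Kif3a and 14 in each of Kif1a and Kif1b, and it falls at the same place of exon 11 in Kif5a and Kif5c. Scanned to 40 bases past the end of exon 11 in the spliced transcript, the highest window held 16 A in Kif5b and 14 in Kif5c. Fewer spliced reads stopped there in Kif5b than in Kif5c, so the order of these A counts was not the order of shares.

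In most spliced Kif1a reads the last exon of the model lay before that stretch. Of 264 spliced Kif1a reads in replicate 1 and 188 in replicate 2, 69.3% and 56.9% ended at exon 9, of 66 bases, and 15.9% and 19.1% at exon 10, of 18 bases. In Kif1b the same exons, of the same lengths, took 30.1% and 32.1% and 17.7% and 16.1%. The reads at exon 9 of Kif1b differ in kind, since 31 of 34 in replicate 1 and 31 of 36 in replicate 2 were placed on an annotated short transcript, Kif1b-209, of 9 exons and 2980 bases, which GENCODE marks as retaining an intron. No read at exons 9 and 10 of Kif1a lay on an annotated transcript. Kif3a stopped at exon 9 in 54.1% and 53.9% of spliced reads. Kif21a stopped at exon 11 in 36.6% and 36.6% and at exon 4 in 28.7% and 30.5%. Kif2a had 9 of 21 and 5 of 21 spliced reads ending at exon 6. Dync2h1 had 8 of 24 and 14 of 27 at exon 23, and 6 of 24 and 7 of 27 at exon 54.

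Counted over the 29 motor genes with 20 or more spliced reads in both libraries, 16 internal exons in 10 genes ended at least 10% of spliced reads, on the mean of the libraries. For each internal exon the highest A count of any 20-base window was taken from its start to 40 bases past its end in the spliced transcript. A window of 12 or more A was found at 14 of these 16 exons and at 90 of the other 580 internal exons of the same genes (15.5%). In all other protein-coding genes the same count gave 1139 of 1317 exons (86.5%) and 7333 of 48653 (15.1%), so motor genes did not stand apart in this. In motor genes the median length was 129.5 bases for the 16 exons and 119 bases for the others, and a longer exon offers more windows. The exceptions were exon 11 of Kif5a, with 11 A, and exon 7 of Kif1bp, with 9. That exon ended 97 of 98 and 184 of 186 spliced Kif1bp reads, and 4 annotated transcripts end there. For 11 of the 16 exons no annotated transcript ends there, and 10 of those 11 had the A-rich window. The value nearest below the limit of 10% was 9.95%, at exon 19 of Dync2h1. Whether the A-rich stretches have a part in where reads stop was not tested, and the priming of the libraries is not given in the sources used here.

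**Figure D4:**
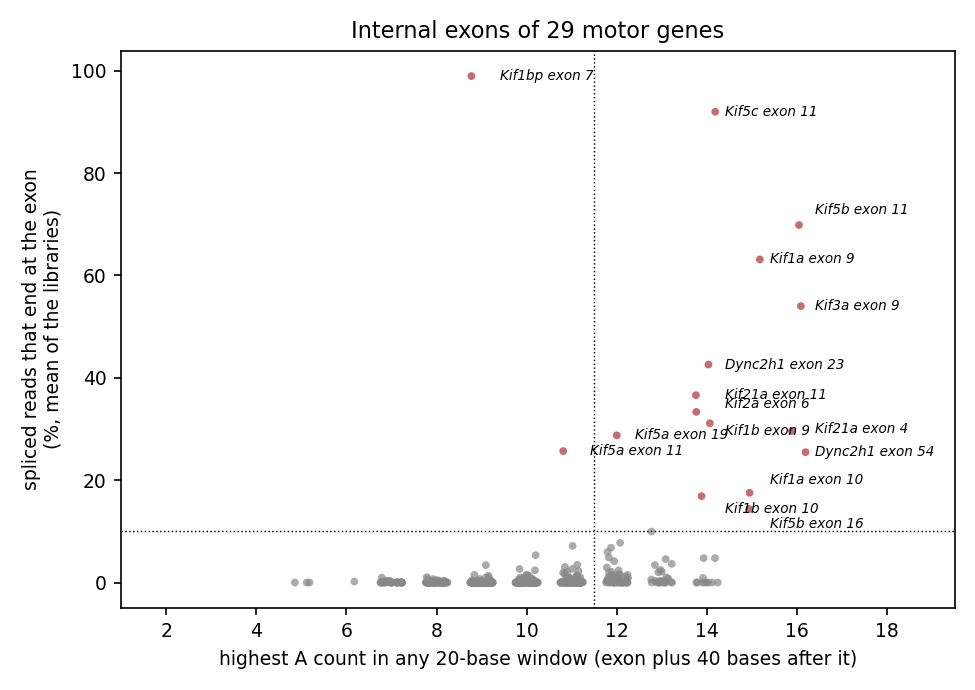
Internal exons of 29 motor genes, with the highest A count in any 20-base window on the x axis (points spread sideways for visibility) and the mean percentage of spliced reads that end at the exon on the y axis, red at 10% or more. Of the 16 red points, 14 lie at 12 A or more.

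Unspliced reads made up 17.4% of motor reads in replicate 1 and 14.4% in replicate 2, and 96.9% and 97.3% of them touched the annotated last exon of a coding transcript. They held 66.6% and 68.6% of Kif1b reads, 53.9% and 58.9% of Kif5a reads, and 37.0% and 46.0% of Kif1a reads. In some genes the class given to them changed between the libraries, whereas nearly all those of Kif1b and Kif5a were genomic in both, with 224 of 225 and 244 of 245 Kif1b reads called genomic. All 155 unspliced reads of Kif1a were called incomplete in replicate 1 and all 160 genomic in replicate 2, and of Dctn4 132 of 133 were incomplete in replicate 1 and 74 of 83 genomic in replicate 2.

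The share of the leading model of a gene was compared between the libraries for the 29 motor genes that had 20 or more reads in both. The leading model was the intron chain with most reads, genomic reads left out, and the unspliced reads that remained counted as a single form. By Fisher's exact test over 6262 genes, 5 of the 29 passed an adjusted p of 0.05 (Kif1a, Kif1bp, Kifc2, Dctn4 and Dctn5), where 3.13% of all genes passed. In Dctn4 the leading form was the unspliced one, with 132 of 165 reads in replicate 1 and 9 of 47 in replicate 2. Most unspliced Dctn4 reads of replicate 2 were in the genomic class left out here. With unspliced reads of every class pooled, an alternative chosen after the class change was seen, 2 of 32 passed (1.74% of all genes), namely Kif1bp and Kifc2. The leading model of Kif1bp, Kif1bp-201, then held 58.7% of its reads in replicate 1 and 78.8% in replicate 2 (exact test adjusted p = 0.0117), and that of Kifc2, Kifc2-201, held 36.2% and 56.0% (exact test adjusted p = 0.0271). Without incomplete models 0 of 22 passed, and 0 had an unadjusted p under 0.05. In both genes a smaller share of spliced reads held the first intron in replicate 1, a difference that was not tested, at 78.6% in replicate 1 and 90.3% in replicate 2 for Kif1bp, and 73.7% and 83.8% for Kifc2.

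Reads that spanned a splice choice, complete or not, were counted for each form. A cassette exon is an internal exon that some reads include and others skip. With at least 20 informative reads in each library and 5% of pooled reads on each side, 11 such choices at 10 exons of 9 motor genes were measured. By Fisher's exact test over the 1489 choices of all genes, 0 of the 11 differed between the libraries (0 at an unadjusted p under 0.05), where 0.269% of all passed. Of the 10 exons, 8 have a length that is a multiple of 3. Counted by choice, this was 9 of 11, against 760 of 1489 in all genes.

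**Figure D5:**
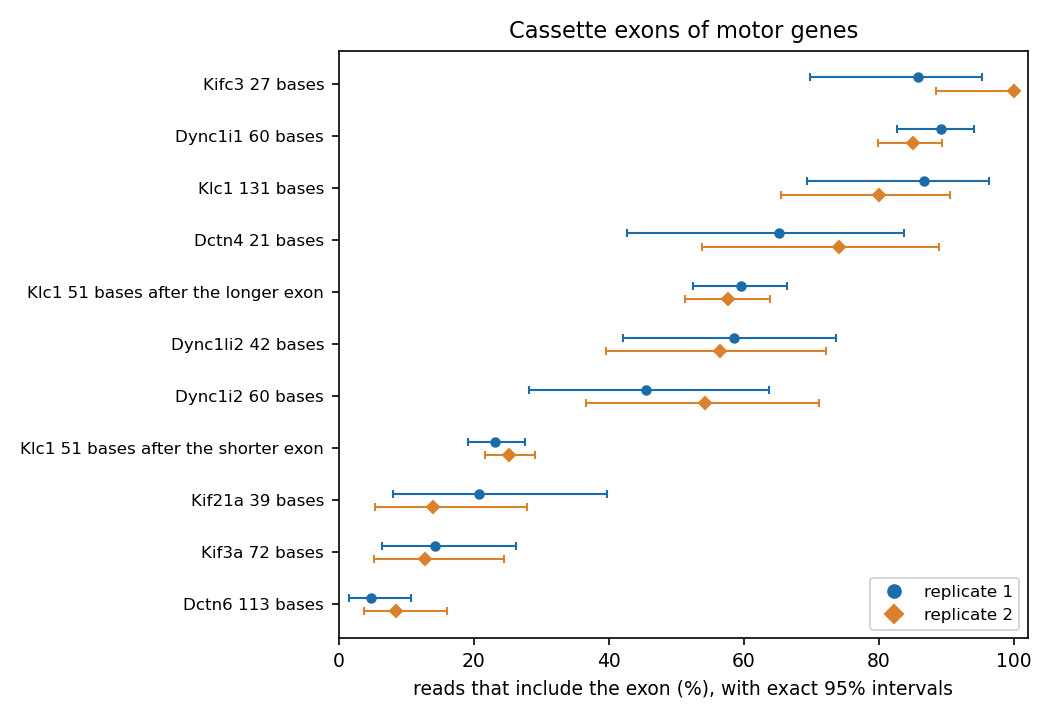
Percentage of informative reads that include each cassette exon of motor genes, with exact 95% intervals, circles for replicate 1 and diamonds for replicate 2. The intervals of the libraries overlap for each exon, and inclusion runs between 4.76% and 100%.

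The dynein intermediate chains share a cassette exon. Dync1i1 included an exon of 60 bases in 116 of 130 reads in replicate 1 (89.2%, 95% interval 82.6 to 93.99) and 204 of 240 in replicate 2 (85.0%, 79.8 to 89.3). Its paralog Dync1i2 included an exon of 60 bases in 15 of 33 (45.5%, 28.1 to 63.6) and 19 of 35 (54.3%, 36.6 to 71.2). In both libraries the intervals of Dync1i1 lay above those of Dync1i2. The sequences are given because the exons are alike at 46 of 60 positions, which the capitals mark (chr6:5784439-5784498 and chr2:71233649-71233708, both plus strand, GENCODE M21 transcripts).
Dync1i1 60-base exon: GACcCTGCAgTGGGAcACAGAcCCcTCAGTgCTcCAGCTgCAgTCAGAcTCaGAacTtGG
Dync1i2 60-base exon: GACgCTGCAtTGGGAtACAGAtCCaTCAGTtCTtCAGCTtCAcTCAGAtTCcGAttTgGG
Of the 14 bases that differ, 13 fall at the third position of a codon. Just upstream, Dync1i1 also chose between 2 acceptors 33 bases apart, with the longer exon in 98 of 133 reads in replicate 1 (73.7%) and 173 of 240 in replicate 2 (72.1%), and the shorter in 33 and 64. The 33 bases (chr6:5769701-5769733) are coding.
Dync1i1 33-base piece: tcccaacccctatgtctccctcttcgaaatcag

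Klc1 varied at its 3' end. Light chains of kinesin-1 differ in the tail by splicing, and the reads showed 3 choices in a row. An acceptor that adds 24 bases was used in 474 of 639 reads in replicate 1 (74.2%) and 648 of 872 in replicate 2 (74.3%). The end of the same exon was either extended by 27 bases or not, and an exon of 51 bases, in which the annotated coding sequence ends, followed in part of the reads. After the shorter exon the 51-base exon was included in 94 of 407 reads in replicate 1 (23.1%, 95% interval 19.1 to 27.5) and 141 of 559 in replicate 2 (25.2%, 21.7 to 29.0). After the extended exon it was included in 121 of 203 (59.6%, 52.5 to 66.4) and 147 of 255 (57.6%, 51.3 to 63.8), so the intervals of the 2 settings did not overlap in either library. These counts hold only reads that went on to the acceptor at chr12:111794337. Of all reads with an intron leaving the extended exon, 51.9% (replicate 1) and 49.3% (replicate 2) went to the 51-base exon. From the shorter exon, 22.3% and 23.9% did. An intron from the shorter exon to the 51-base exon is not annotated, and new combinations held 47.2% and 49.5% of Klc1 reads. The leading form, the annotated Klc1-202, held 173 of 687 and 240 of 904 reads. The 3 coding pieces lie at chr12:111789325-111789348, chr12:111789460-111789486 and, for the part of the 51-base exon that is coding, chr12:111793649-111793678 (plus strand).
Klc1 24-base piece: ggtcttgacaatgttcacaaacag
Klc1 27-base piece: gtgagtatgagcgtagagtggaatggg
Klc1 51-base exon: atgagaaagatgaagctcgggctggttaaa
After the extended exon, a further exon of 131 bases was included in 26 of 30 (replicate 1) and 36 of 45 (replicate 2) reads. Only reads that went on to the same acceptor past this exon are counted there. Of all reads with an intron leaving the extended exon, 11.1% (replicate 1) and 11.9% (replicate 2) went to the 131-base exon. The shorter exon was joined to the 131-base exon in 15 and 23 further reads, by an intron that is not annotated.

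The remaining cassette exons rest on fewer reads. Dync1li2 included an exon of 42 bases in 24 of 41 reads in replicate 1 (58.5%, 95% interval 42.1 to 73.7) and 22 of 39 in replicate 2 (56.4%, 39.6 to 72.2). Kif21a included an exon of 39 bases, the one after its main stop, in 6 of 29 and 6 of 43 reads. Kif3a included one of 72 bases, which also follows the exon of its main stop, in 8 of 56 (14.3%) and 7 of 55 (12.7%), and Dctn4 one of 21 bases in 15 of 23 and 20 of 27. Kifc3 included an exon of 27 bases in 30 of 35 and 30 of 30, and Dctn6 one of 113 bases in 5 of 105 and 8 of 94. Of these, 3 wholly coding exons are shown (chr8:104423586-104423627, minus strand, chr15:90976471-90976509, minus strand, and chr11:53588689-53588760, plus strand).
Dync1li2 42-base exon: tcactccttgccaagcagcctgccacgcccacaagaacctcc
Kif21a 39-base exon: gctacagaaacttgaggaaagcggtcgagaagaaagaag
Kif3a 72-base exon: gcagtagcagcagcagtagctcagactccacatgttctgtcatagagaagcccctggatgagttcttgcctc

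In Dctn2 and Dctn1 the leading model was not annotated. In Dctn2 a 14-exon model held 369 of 503 reads in replicate 1 (73.4%) and 513 of 678 in replicate 2 (75.7%), whereas annotated transcripts held 26 and 45 reads. It leaves exon 2 at a donor 10 bases past the annotated one. This donor took 399 of 452 reads at that acceptor in replicate 1 (88.3%) and 550 of 627 in replicate 2 (87.7%), and the annotated donor 30 and 49. The end of exon 2 is shown from a transcript annotated with the intron retained (chr10:127267473-127267502, plus strand), with the 10 added bases in capitals.
Dctn2 end of exon 2: gtttgatgcgGTAAGACTGTgtgctacctc
Both the added bases and the bases after them start with GT, the usual start of an intron. The length of 10 bases is not a multiple of 3, and exon 2 is coding.

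In Dctn1 the leading model, of 26 exons, held 40 of 186 reads in replicate 1 and 53 of 205 in replicate 2. It leaves an exon 17 bases past the donor of the annotated intron. This choice took 128 of 149 reads in replicate 1 (85.9%) and 140 of 174 in replicate 2 (80.5%), against 19 and 33 for the annotated intron (12.8% and 19.0%). The intron of the leading model is not annotated, but TALON classed the model as a new combination of annotated splice sites. The donor itself was thus not counted as new. An exon of 15 bases is annotated within the intron, and 0 of 149 and 0 of 174 reads held it as a separate exon. Whether the added bases belong to that exon could not be read, since a genome sequence was not used here. The first intron of the longest Dctn1 transcript was present in 3 of 172 and 4 of 201 spliced reads. Dynlt1a was led among spliced reads by a model with a new splice site, with 13 and 10 reads, and its unspliced reads numbered 41 and 20. A new combination of annotated sites in Dync1li2 had 9 and 10 reads. In Kifc2 an intron that is not annotated, to an acceptor 51 bases inside an exon, took 31 reads in replicate 1 (30.4%) and 40 in replicate 2 (20.5%) of those leaving the shared donor.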

How the data were processed

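Each library has a deposited table with raw read counts for every transcript model, and a deposited annotation with exon coordinates of the models, made with TALON per the file headers. Build mm10 is given per the labels. For aligner, filters, platform, priming and strand setting, the step is not given in the sources used here. Gene counts were summed over a gene's models of every class, and CPM used all reads of the library. Models were matched by strand, chromosome and intron chain. Members, families and gene lists were chosen with earlier results of these data known. Genes named one by one were the 3 highest of each family, those past the library test, those with a cassette exon, those with an unannotated spliced model of at least 5 reads in each library and 10% of spliced reads, and those with a second last intron in at least 10% of spliced reads. Further members were given by their reads to account for every member. The A count window and its limit, and leading models with unspliced reads pooled, were chosen after the data were seen. Tests were two-sided Fisher's exact tests (scipy) with p adjusted by the method of Benjamini and Hochberg, and edgeR 4.0.16 and DESeq2 1.42.0 (R 4.3.3) gave alternative sizes and edgeR's exact test. Shares have exact Clopper-Pearson 95% intervals, which cover counting error only. The p-values of Fisher's exact test cover counting error only. The labels give separate biosamples under a shared donor identifier, so whether the libraries came from separate animals is not settled. Scripts were tested on simulated data. Sequences and positions came from GENCODE M21.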

Additional observations from a re-analysis of the deposited data

How the results depend on the processing

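The count of motor genes that differed between the libraries was 5, and stayed at 5 with DESeq2 size factors, without genomic and incomplete models, and with no filter on low counts. It was 7 with TMM library sizes and 0 with edgeR's exact test, which adds a dispersion that counting error lacks. For leading models the count of 5 became 0 without incomplete models (22 genes tested), 3 at a minimum of 50 reads per library, and 2 with unspliced reads of every class pooled. No cassette exon passed under any of the 3 settings run. Genes detected numbered 47, and 35 at a minimum of 10 reads per library, 50 without replicate 1 and 47 without replicate 2. Without genomic and incomplete models the summed CPM of 13 of 14 families moved by more than the spread between the libraries, and with reads on annotated nuclear genes as the total 7 of 14 did. The log2 ratios of Kifc2, Dync1i1, Kif1bp, Dctn2 and Klc1 stayed negative under each setting run, and lost the call under edgeR's exact test. No paired analysis was possible because the labels give 1 group only. Depth limits most members below 10 CPM, which rest on fewer than 15 reads per library, and exons of Dync2h1, Kif2a and Kif21a, which rest on 21 to 43 reads. For the longest genes, incomplete reads do not show which form they came from beyond the exons they hold.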
